A study of Homo sapiens with 11 samples.

Results

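The ribosomal protein genes were taken as the protein-coding genes of GRCh38 whose symbols are RPL or RPS followed by a number, with suffix letters allowed and the RPS6K kinases left out, plus RPLP0, RPLP1, RPLP2 and RPSA. Of 20033 protein-coding genes in the RefSeq table of GRCh38.p14, 82 met this rule, 50 of the large ribosomal subunit and 32 of the small subunit. ChIP-seq peak lists came from SK-N-MC, a long-established Ewing sarcoma line driven by the EWSR1::FLI1 fusion, labelled wildtype and with no treatment in the labels. Each of the 9 lists came from 1 sample: FLI1, the NuRD subunits HDAC2, RBBP4, MTA2 and CHD4 (this last with a Flag antibody), and the histone marks H3K4me3, H3K27ac, H3K4me1 and H3K27me3. Input libraries, 2 in number, were not analysed here. The sources used here do not say how the Flag tag was brought into cells labelled wildtype. A FLI1 antibody can bind wild-type FLI1 and the fusion alike, so the FLI1 list is called by the antibody's target.

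With 1 list per target there was no replicate error and no test, and every count below is a description of these lists. Read counts were not in the lists, so depth is unknown, and a gene without a peak is a gene without a called peak at that depth. A gene was counted for a target when a peak shared at least 1 bp with the 1 kb on either side of either annotated end. Fold enrichment is the authors' height of a peak over its local background, and a percentile is the standing of that height within the same list. As a check of the cell label, 10 of 10 known EWSR1::FLI1 target genes had an H3K4me3 peak, against 56.8% of all protein-coding genes. Of the 10, 9 had a FLI1 peak within 100 kb and 1 within 1 kb. The share of all genes with FLI1 within 100 kb was not counted. In the 4 lists of other translation genes given below, that share was 12.5% to 20.7%. H3K4me3 was at 93.8% to 96.6% of the same lists, so a high H3K4me3 share is not particular to fusion targets. H3K4me3 was present at 0 of 4 blood, 0 of 4 muscle and 1 of 4 epithelial markers. H3K27ac was at 1 of 4 blood, 0 of 4 muscle and 1 of 4 epithelial markers, and 1 blood marker had FLI1 within 100 kb.

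Ribosomal proteins assemble with ribosomal RNA into the large and small subunits of the ribosome, and their genes are among the most actively transcribed of a growing cell. Their transcription typically begins at a C within a run of pyrimidines, the stretch that lets growth signals control translation of the messages. H3K4me3 and H3K27ac mark active promoters, H3K4me1 is broadest at enhancers and H3K27me3 is laid down by Polycomb. NuRD is a complex that joins the nucleosome remodeller CHD4 with the histone deacetylases HDAC1 and HDAC2, the MTA scaffold proteins and the histone-binding proteins RBBP4 and RBBP7. HDAC2 and RBBP4 also belong to other complexes.

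The promoters below give the sequence at the starts of the genes that the results turn on. Each runs from 160 bases before the placed start to the first 25 transcribed bases, 5′ to 3′ on the gene's strand, from the RefSeq promoter table of GRCh38.p14. Capitals mark the first 5 transcribed bases and the matches to a named motif. The first 4 are shown for the 4 highest MTA2 peaks of the family, and their other capitals mark GTGCGT on either strand, a motif chosen after these values were seen. RPL14 lies at chr3:40457179-40457363 (+ strand), RPL3 at chr22:39319599-39319783 (− strand), RPS9 at chr19:54200698-54200882 (+ strand) and RPL9 at chr4:39458898-39459082 (− strand).
RPL14: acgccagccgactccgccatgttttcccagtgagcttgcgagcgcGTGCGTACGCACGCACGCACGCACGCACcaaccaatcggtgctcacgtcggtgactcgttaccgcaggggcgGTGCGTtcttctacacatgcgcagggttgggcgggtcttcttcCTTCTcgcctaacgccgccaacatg
RPL3: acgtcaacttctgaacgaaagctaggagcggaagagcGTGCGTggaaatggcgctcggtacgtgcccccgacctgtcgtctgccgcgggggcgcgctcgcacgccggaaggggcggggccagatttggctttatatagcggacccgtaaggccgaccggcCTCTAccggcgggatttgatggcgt
RPS9: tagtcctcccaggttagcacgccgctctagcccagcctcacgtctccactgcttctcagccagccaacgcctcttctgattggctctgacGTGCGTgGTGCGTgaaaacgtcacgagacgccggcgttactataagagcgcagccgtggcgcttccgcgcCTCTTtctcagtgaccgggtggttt
RPL9: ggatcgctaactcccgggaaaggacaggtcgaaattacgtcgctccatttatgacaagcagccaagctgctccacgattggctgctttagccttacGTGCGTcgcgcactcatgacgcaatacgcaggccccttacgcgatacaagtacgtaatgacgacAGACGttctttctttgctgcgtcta

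The next 4 are the promoters of the genes with a FLI1 peak, with the ETS motif CCGGAAG of either strand in capitals, since FLI1 is an ETS factor. RPS26 lies at chr12:56041758-56041942 (+ strand), RPS18 at chr6:33271915-33272099 (+ strand), RPS27 at chr1:153990602-153990786 (+ strand) and RPS27A at chr2:55231743-55231927 (+ strand). Only RPS18 among these 4 holds CCGGAAG in the printed stretch, with 2 matches. The FLI1 peak of RPS27A lies past the end of its printed stretch.
RPS26: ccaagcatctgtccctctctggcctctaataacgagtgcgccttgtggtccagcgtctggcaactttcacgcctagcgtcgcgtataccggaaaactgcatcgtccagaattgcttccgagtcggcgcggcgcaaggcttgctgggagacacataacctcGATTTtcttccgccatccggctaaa
RPS18: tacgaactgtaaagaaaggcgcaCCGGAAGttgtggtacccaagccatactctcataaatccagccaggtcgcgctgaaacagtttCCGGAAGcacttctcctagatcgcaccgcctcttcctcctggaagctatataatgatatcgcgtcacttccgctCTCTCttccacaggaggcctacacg
RPS27: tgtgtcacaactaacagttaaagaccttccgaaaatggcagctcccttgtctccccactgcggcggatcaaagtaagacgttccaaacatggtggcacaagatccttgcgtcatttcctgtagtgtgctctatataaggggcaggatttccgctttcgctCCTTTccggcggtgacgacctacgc
RPS27A: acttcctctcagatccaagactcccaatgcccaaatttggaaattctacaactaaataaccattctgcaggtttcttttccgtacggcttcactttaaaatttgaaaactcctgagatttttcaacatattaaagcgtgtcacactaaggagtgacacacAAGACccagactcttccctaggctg

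The last 4 are shown with the same ETS motif in capitals. RPS27L at chr15:63157453-63157637 (− strand) and RPS29 at chr14:49598686-49598870 (− strand) had the highest HDAC2 peaks. RPL35A at chr3:197950030-197950214 (+ strand) was the gene with all 4 NuRD subunits, and RPL10L at chr14:46651757-46651941 (− strand) had no peak in any list.
RPS27L: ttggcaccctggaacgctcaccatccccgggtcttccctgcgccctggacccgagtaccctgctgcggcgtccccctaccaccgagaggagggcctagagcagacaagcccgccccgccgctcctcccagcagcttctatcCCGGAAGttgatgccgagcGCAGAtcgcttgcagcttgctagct
RPS29: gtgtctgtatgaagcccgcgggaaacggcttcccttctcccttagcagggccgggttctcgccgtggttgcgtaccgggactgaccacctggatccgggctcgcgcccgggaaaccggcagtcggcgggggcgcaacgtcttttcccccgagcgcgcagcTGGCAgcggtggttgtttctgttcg
RPL35A: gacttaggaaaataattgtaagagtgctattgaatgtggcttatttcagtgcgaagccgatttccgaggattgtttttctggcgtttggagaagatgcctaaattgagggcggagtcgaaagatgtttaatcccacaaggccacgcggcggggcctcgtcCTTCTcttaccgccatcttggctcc
RPL10L: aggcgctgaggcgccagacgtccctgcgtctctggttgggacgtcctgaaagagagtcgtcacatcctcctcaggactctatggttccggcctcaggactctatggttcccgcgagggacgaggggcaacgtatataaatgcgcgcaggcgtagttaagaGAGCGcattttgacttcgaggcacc

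Nearly every ribosomal protein gene carried the 2 marks of active promoters, at heights near the top of each list. H3K4me3 was found at 79 of 82 (96.3%), against 56.8% of all protein-coding genes. H3K27ac was found at 77 (93.9%), against 39.2% of all. All 77 genes with H3K27ac also had H3K4me3, as did 7618 of the 7861 protein-coding genes with H3K27ac. Both marks were thus at 93.9% of the 82 genes, against 38.0% of all protein-coding genes. The median H3K27ac fold enrichment was 13.0 (range 6.95 to 24.7), where all genes with a peak had a median of 9.44, and the median percentile was 87.8 against 70.1. For H3K4me3 the median was 23.9 (range 8.34 to 38.5) against 19.0, at the 86.3 percentile against 65.1. The H3K4me3 peaks were also wide, with a median of 2213 bp, where all genes had 1524 bp and genes with both marks 1786 bp.

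High H3K27ac peaks were at RPL7A (fold enrichment 20.9, rank 261 of 21500), RPS2 (20.3), RPL4 (20.1) and RPL39 (19.9). The lowest were at RPS27L (7.98), a paralog of RPS27 that p53 induces, RPS13 (7.82) and RPS27 (6.95). RPL5, which joins RPL11 and a small ribosomal RNA in the particle that restrains MDM2, had the highest H3K4me3 peak, with a fold enrichment of 38.5 (rank 20 of 16089). High peaks were also at RPS23 (34.6), RPL23 (34.2) and RPL8 (34.0). RPLP1 (14.3), RPS13 (12.2) and RPL39L (8.34) had the lowest. RPS13 was thus among the 3 lowest genes in both lists. RPL11 had an H3K4me3 fold enrichment of 26.1 and an H3K27ac fold enrichment of 13.5, close to the family's medians. RPSA, whose protein is also known as a laminin receptor, had 19.7 and 14.9. Of the stalk proteins that recruit elongation factors, RPLP0 had 23.5 and 14.2, RPLP2 had 23.1 and 12.7, and RPLP1 had 14.3 and 9.74. The 2 subunits did not stand far apart: median H3K27ac fold enrichment was 13.3 for the large and 12.5 for the small subunit, and median H3K4me3 fold enrichment was 23.7 and 24.5.

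**Figure D1:**
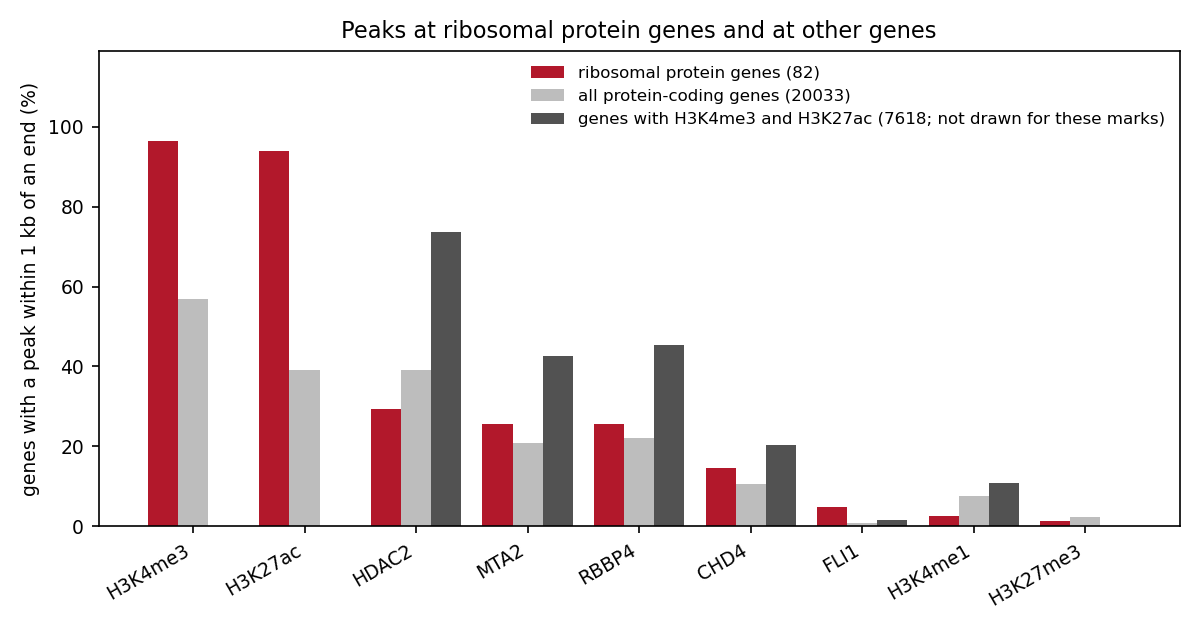
Percentage of genes with a peak within 1 kb of either annotated end, for each target of the 9 lists, in the 82 ribosomal protein genes (red), all 20033 protein-coding genes (light grey) and the 7618 genes with both H3K4me3 and H3K27ac (dark grey). HDAC2 was present at 29.3% of the ribosomal protein genes and at 73.6% of the genes with both marks.

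The genes that lacked a mark included 3 paralogs of restricted expression and RPL24. RPL10L, RPL3L and RPL39L are paralogs known for expression in testis (RPL10L, RPL39L) or in heart and skeletal muscle (RPL3L). RPL10L had no peak in any of the 9 lists. RPL3L had an H3K4me3 peak (fold enrichment 15.5) beside a neighbouring gene end, that of MSRB1, and RPL39L had low peaks of H3K4me3 (8.34) and RBBP4 (2.63). RPL24, which belongs to the ribosome of every tissue, had neither H3K4me3 nor H3K27ac in the lists. RPL24 had peaks of HDAC2 (3.61) and CHD4 (4.22).

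Numbers were missing from the deposited peak names beside RPL24. Between the peaks that flank RPL24, 3 consecutive H3K4me3 numbers, 2 of H3K27ac and 2 of H3K4me1 were absent. The nearest listed H3K4me3 peaks were 106 kb and 37.3 kb away from RPL24. No number was missing around RPL10L, RPL3L or RPL39L in any list. Over the whole lists 213 numbers were absent for H3K4me3, 196 for H3K27ac, 83 for H3K4me1, 82 for MTA2, 62 for H3K27me3 and 13 for FLI1. For CHD4, HDAC2 and RBBP4 0 were absent. The sources used here give no reason, so the absence of marks at RPL24 cannot be told apart from the absence of entries.

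**Figure D2:**
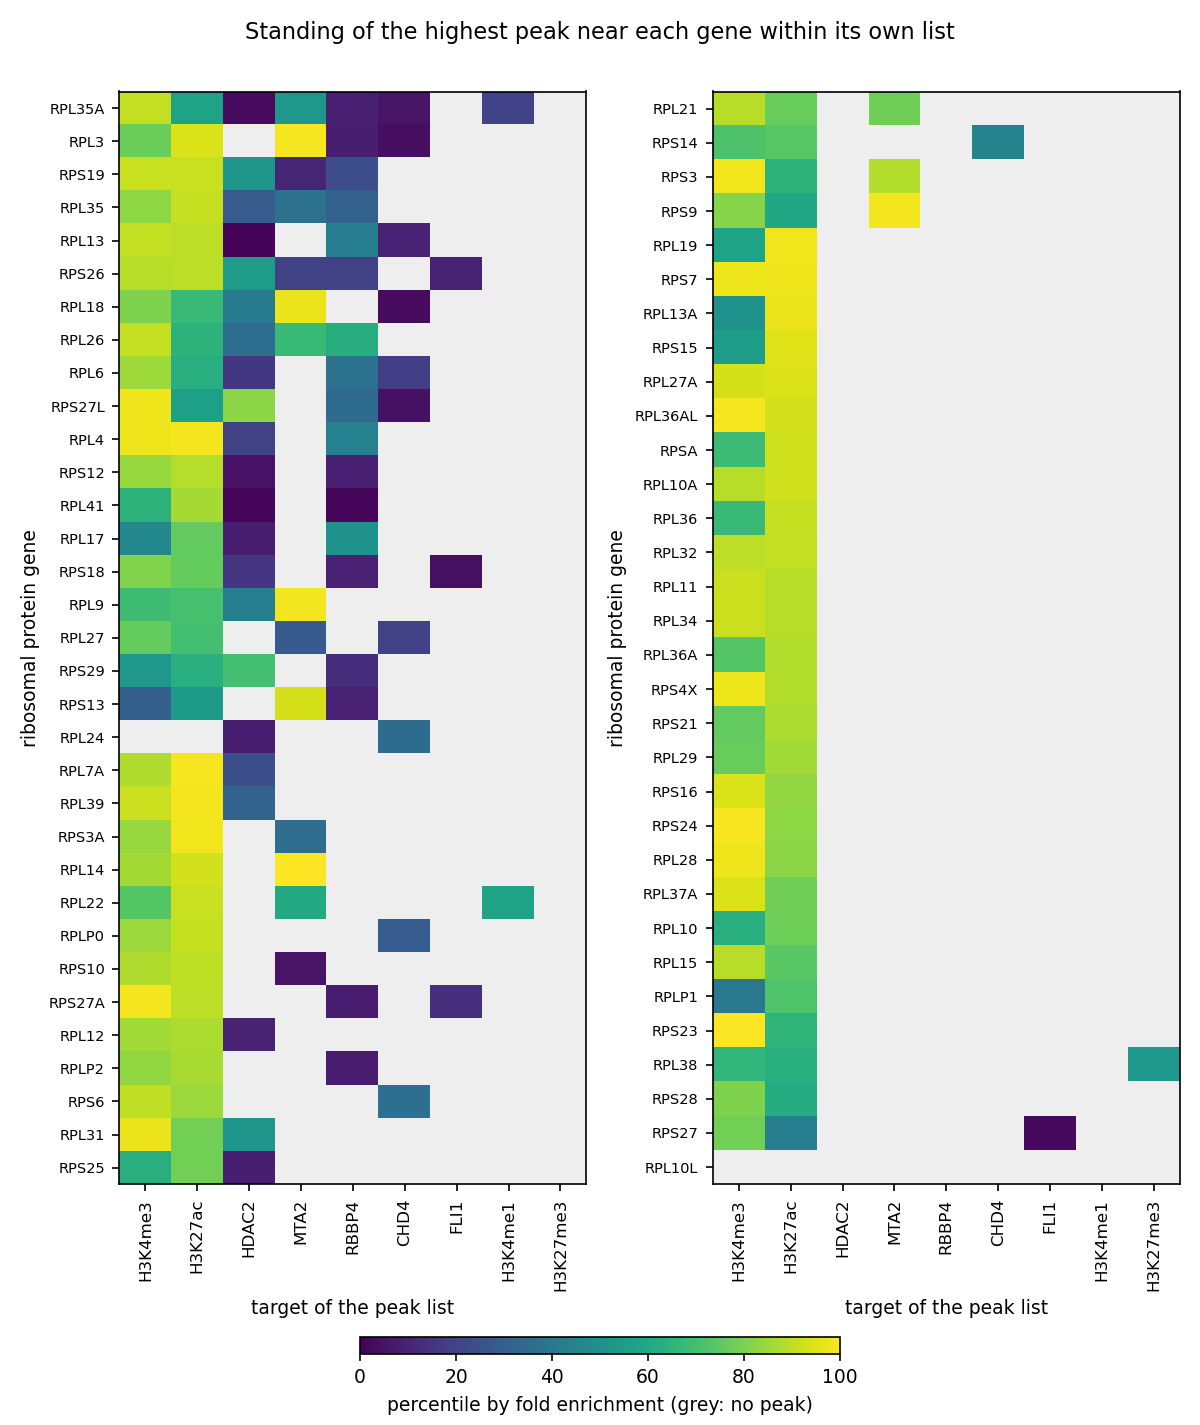
Percentile of the highest peak near each of the 65 ribosomal protein genes with a placed start (rows, in 2 panels) within the list of each target (columns), by fold enrichment, with grey for no peak. H3K4me3 and H3K27ac columns are filled mostly from the middle to the top of their lists, and HDAC2, RBBP4 and CHD4 fill few rows, mostly low in their lists (over all 82 genes the median percentiles are 86.3, 87.8, 21.0, 19.9 and 15.4).

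NuRD subunits were called at fewer of these genes than of other genes with the same marks. HDAC2 had a peak at 24 of the 82 genes (29.3%), against 39.0% of all protein-coding genes. MTA2 had 21 (25.6%, against 20.8%), RBBP4 21 (25.6%, against 22.0%) and CHD4 12 (14.6%, against 10.5%). Set beside the 7618 genes that also carried H3K4me3 and H3K27ac, each share was lower. HDAC2 was at 22 of the 77 ribosomal protein genes with both marks (28.6%), against 73.6% of all genes with both marks. MTA2 was at 21 of 77 (27.3%), against 42.7%, RBBP4 at 20 of 77 (26.0%), against 45.4%, and CHD4 at 11 of 77 (14.3%), against 20.4%. No subunit was called at 36 of the 82 genes (43.9%, against 54.7% of all genes), or at 34 of the 77 with both marks (44.2%), where 16.7% of all genes with both marks had none.

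The 36 genes without a NuRD subunit took in 23 of the 50 large subunit genes (46.0%) and 13 of the 32 small subunit genes (40.6%). Among them were RPL11, RPSA, RPLP1, RPS2, RPL23, RPL8 and RPS23. RPS2 was in the top 5 by H3K27ac, and RPL23, RPL8 and RPS23 were in the top 5 by H3K4me3. In alphabetical order, the first genes without HDAC2 were RPL10, RPL10A, RPL10L, RPL11, RPL13A, RPL14 and RPL15. Median H3K27ac fold enrichment was 13.3 in the 34 marked genes without any subunit and 12.6 in the 43 with at least 1, and the ranges overlapped almost wholly (6.95 to 24.7 and 7.82 to 20.9). Among genes with both marks and an H3K27ac peak at or above the family's median, HDAC2 was at 10 of 39 ribosomal protein genes (25.6%), against 75.3% of 1751 genes. At this height 19 of the 39 had no subunit (48.7%), against 15.5%.

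**Figure D3:**
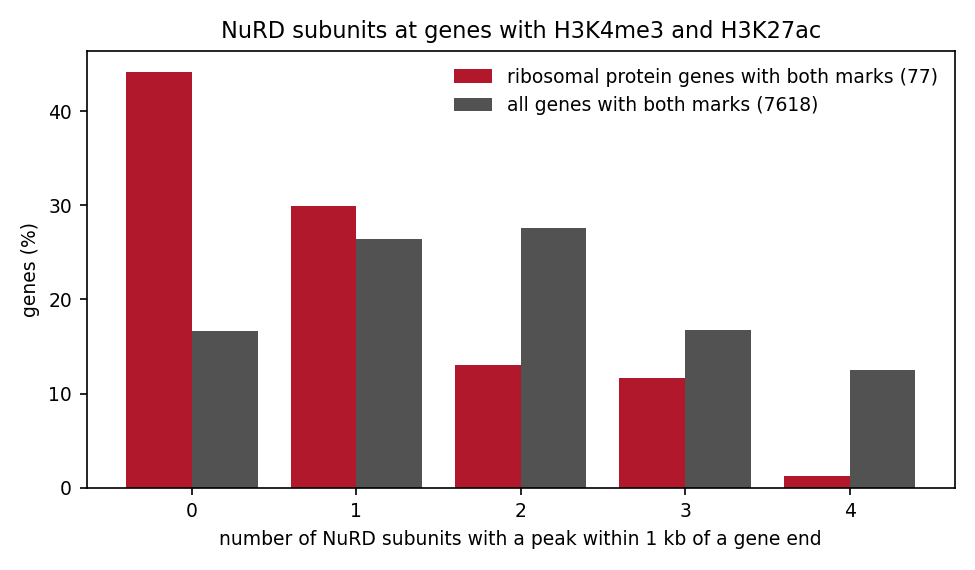
Percentage of genes by the number of NuRD subunits (CHD4, HDAC2, MTA2, RBBP4) with a peak within 1 kb of an end, for the 77 ribosomal protein genes with H3K4me3 and H3K27ac (red) and all 7618 genes with both marks (dark grey). The class with 0 subunits held 44.2% of the ribosomal protein genes and 16.7% of all genes, and the class with 4 held 1.30% and 12.5%.

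Where subunits were present, they were often alone. Of the 77 genes with both marks, 23 had 1 subunit (29.9%, against 26.4% of all genes with both marks), 10 had 2 (13.0%, against 27.6%) and 9 had 3 (11.7%, against 16.8%). Only RPL35A had all 4, against 5.62% of all genes and 12.5% of genes with both marks. The 9 genes with 3 were RPL3, RPL6, RPL13, RPL18, RPL26, RPL35, RPS19, RPS26 and RPS27L, named after their values were seen. At RPL6 and RPL13 every subunit peak lay away from the placed start, which for RPL6 is inside the annotated gene. MTA2 was the only subunit at 10 of the 82 genes (12.2%, against 4.57% of all genes with both marks). HDAC2 was the only one at 7 (8.54%), where 18.3% of all genes with both marks had HDAC2 alone. RBBP4 was the only one at 5 (6.10%, against 2.99%) and CHD4 at 3, RPLP0, RPS6 and RPS14 (3.66%, against 0.499%). The sets differ here, since the family shares are over all 82 genes and the others over genes with both marks. The RBBP4 count takes in RPL39L, without H3K27ac, and the HDAC2 count a gene with neither mark.

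At RPL35A the subunits lay mostly away from the promoter. Its CHD4 (fold enrichment 3.15), HDAC2 (3.21) and MTA2 (6.79) peaks had summits 7453, 7357 and 7477 bp from the placed start, past the far end of the gene. RBBP4 had a peak there too, with its summit at 7393 bp, and another of the same fold enrichment (3.05) at −245 bp, before the start. The far end also held H3K27ac (8.11) and H3K4me1 (4.92), while the start held the H3K4me3 peak (25.5) and a lower H3K27ac peak (5.66). No subunit peak overlapped the promoter stretch of RPL35A printed above.

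MTA2 peaks ranked higher in their list than the peaks of the other subunits did in theirs, and lay closer to the start. The highest MTA2 peak was at RPL14, with a fold enrichment of 23.7, rank 13 of 13462 in the list. It was followed by RPL3 (15.0), whose protein reaches to the peptidyl transferase centre, RPS9 (14.2), RPL9 (14.1) and RPL18 (13.3). RPS13 (11.3) and RPS3 (9.83), named after their values were seen, came next. The lowest were RPL5 (4.58), RPS19 (4.54) and RPS10 (4.14). The 21 peaks had a median of 7.23, against 6.57 for all genes with an MTA2 peak, at the 61.1 percentile against 48.5. RPL14, RPS9 and RPS3 had no other subunit, RPL3 and RPS13 had no HDAC2, and RPL9 and RPL18 had HDAC2.

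The starts of 65 of the 82 genes could be placed from the promoter table. The 16 MTA2 summits near a placed start lay from −470 to −51 bp, all upstream, with a median of −114 bp, and 14 of the 16 were within 250 bp upstream (87.5%, against 59.9% of all genes with an MTA2 peak near a placed start). H3K27ac summits had a median of +195 bp (62 genes, against +180 bp for all) and H3K4me3 +404 bp (62 genes, against +263 bp), both inside the gene. HDAC2 summits had a median of −252 bp at 17 genes, and 15 of the 17 were upstream, while for all genes the median was +51 bp. RBBP4 (13 genes) and CHD4 (7 genes) had medians of −253 and −317 bp, against −49 and −135 bp for all.

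**Figure D4:**
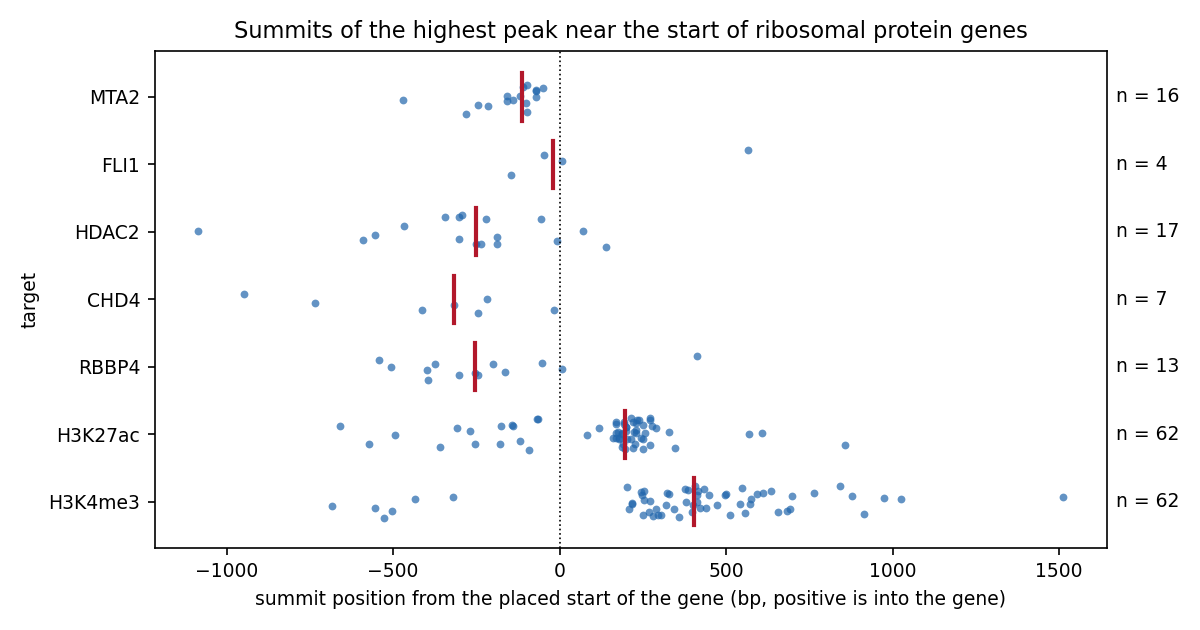
Position of the summit of the highest peak near the placed start of each ribosomal protein gene, in bp with positive values into the gene, by target. Each point is a gene, red bars are medians, and n is the number of genes with such a peak. MTA2 summits are packed before the start (median −114 bp), H3K27ac and H3K4me3 summits mostly lie after it (+195 and +404 bp), and the other subunits scatter upstream.

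For each of the other 3 subunits, most of these MTA2 peaks had no overlapping peak. Of the 21, 7 overlapped an HDAC2 peak (33.3%), where 76.6% of 3818 MTA2 peaks near any protein-coding gene and 73.4% of the whole list did. RBBP4 overlapped 7 (33.3%, against 47.5%) and CHD4 4 (19.0%, against 29.9%). Among MTA2 peaks of fold enrichment 10 or more, 2 of 6 overlapped HDAC2, against 68.8% of 465.

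**Figure D5:**
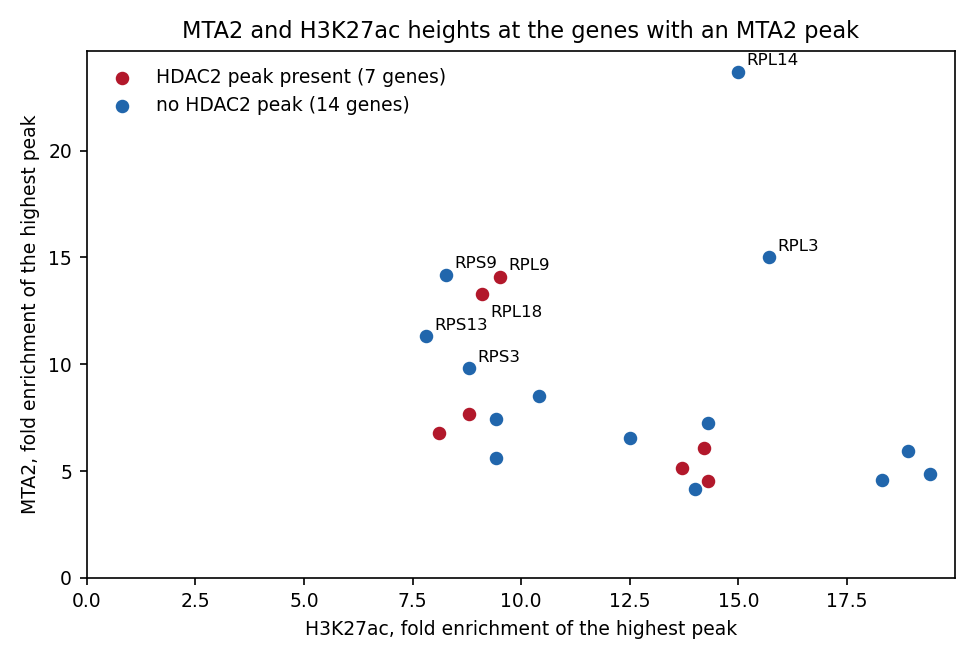
MTA2 against H3K27ac fold enrichment of the highest peak at the 21 ribosomal protein genes with an MTA2 peak, red where an HDAC2 peak was also near the gene (7) and blue where it was not (14). RPL14 stands highest on the MTA2 axis at 23.7, with no HDAC2 peak. The 2 genes with HDAC2 among the 5 of highest MTA2 are RPL9 and RPL18.

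The hexamer marked above was chosen after the MTA2 values were seen, and it lay within each of the family's 4 highest MTA2 peaks. Its place at these 4 peaks is a description only. GTGCGT, searched on both strands of 300 bases around the start, was found 7 times in RPL14, with the nearest match centred 7 bp from the MTA2 summit, and 11, 5 and 10 bp from the summits of RPL3, RPS9 and RPL9. In RPL14 most of the copies lie in a run of CGCA repeats. RPS10, with the lowest of these MTA2 peaks (4.14), also had the motif, 8 bp from its summit. The motif was in 5 of the 14 ribosomal protein promoters with an MTA2 summit (35.7%) and 5 of the 51 without (9.80%). Of those 5 with a summit, 4 are the promoters printed for this motif and RPS10 is the other. The higher share thus rests on promoters whose values were known at the choice and is no independent support. The next 9 genes down the order of height, from RPL18 (13.3) to RPS26 (5.13), had no match. Outside the family, it was in 33.2% of 331 promoters with an MTA2 summit of fold enrichment 10 or more, in 14.7% of 1870 with a lower summit and in 7.78% of 13575 with none. These promoters also differed in base content, with a mean of 70.0% G or C in the first set and 60.1% in the last, and its part in these shares was not tested. ATGGCGG, the core of the motif of the factor YY1, was in 7 of the 14 promoters with an MTA2 summit (50.0%) and 5 of the 51 without (9.80%), against 7.58% of all promoters and 12.9% of those with both marks. Outside the family it was in 14.8% of the 331 promoters with an MTA2 summit of fold enrichment 10 or more, 11.4% of the 1870 with a lower summit and 6.81% of the 13575 with none. The longer YY1 motif AAGATGGC was in 2 of the 14 (14.3%) and 4 of the 51 (7.84%), against 3.86% of all promoters and 6.85% of those with both marks. Outside the family AAGATGGC was in 3.93% of the 331, 6.31% of the 1870 and 3.50% of the 13575, so it did not rise with MTA2 height.

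HDAC2 peaks ranked low in their list by fold enrichment. RPS27L had the highest HDAC2 peak (fold enrichment 6.69), followed by RPS29 (5.91), RPS26 (5.28), RPL31 (5.16) and RPS19 (5.15). RPS19 is the gene most often mutated in Diamond-Blackfan anaemia, and it had MTA2 (4.54) and RBBP4 (3.54) as well. Among the lowest were RPL41 (3.08) and RPL13 (2.91). The median was 4.13, against 4.79 for all genes with an HDAC2 peak, at the 21.0 percentile against 41.2. By −log10 p in place of fold enrichment, the median percentile was 44.8 against 55.6. At 5 of these genes, RPL13, RPL17, RPL35A, RPL41 and RPL6, the HDAC2 peak was away from the placed start. For RPL6 the placed start lies 7.39 kb inside the annotated gene, and its HDAC2 summit was at the annotated end beside PTPN11.

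Another gene's end lay within 1 kb of 31 of the 82 genes. Among genes with both marks, HDAC2 was at 14 of the 30 ribosomal protein genes with such a neighbour (46.7%) and at 8 of the 47 without. For all genes with both marks the shares were 73.2% and 74.0%. The lower HDAC2 share was also present within 1 kb of the placed start alone, 25.8% of 62 ribosomal protein genes with both marks against 71.9% of 6320 genes. That window can still take in the end of a neighbouring gene.

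RBBP4 and CHD4 peaks stood in the lower part of their lists by fold enrichment. RBBP4 was highest at RPL26 (4.67), RPL17 (4.30), RPL4 (4.09), RPL13 (4.06) and RPL6 (3.90), and lowest at RPS27A (3.01), RPL39L (2.63) and RPL41 (2.58). Its 21 peaks had a median of 3.43, against 3.74 for all genes, at the 19.9 percentile against 31.1. By −log10 p the median percentile was 40.7 against 43.7, a smaller gap. All of the 5 highest were at large subunit genes. Those of RPL17, RPL13 and RPL6 lay away from the placed start, with summits at +5035, +5048 and −7370 bp. Of 24 RBBP4 peaks near the family, 15 overlapped an HDAC2 peak (62.5%), against 81.7% near any gene. CHD4 was highest at RPS14 (4.50), whose loss is known from a form of myelodysplastic syndrome, RPS6 (4.25), the classic substrate of S6 kinase, RPL24 (4.22), RPLP0 (4.04) and RPL27 (3.75). It was lowest at RPS27L (3.09), RPL3 (3.03) and RPL18 (2.93). Its 12 peaks had a median of 3.59, against 4.00, at the 15.4 percentile against 27.9, and by −log10 p at the 37.7 against 45.5. Of these 12 peaks, 4 overlapped HDAC2 (33.3%), against 82.1% near any gene, and 3 overlapped RBBP4, against 68.5%.

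FLI1 peaks were few and low, and all 4 were at small subunit genes. RPS27A, which encodes a ribosomal protein fused to ubiquitin, had a fold enrichment of 4.72, RPS26 of 4.38, RPS18 of 3.95 and RPS27 of 3.60. That is 4.88% of the 82 genes, against 0.854% of all protein-coding genes, and 5.19% of the 77 with both marks, against 1.68%. The median fold enrichment was 4.17, against 5.29 for all genes with a FLI1 peak, and the ranks ran from 1347 to 1522 of 1561. Their −log10 p lay between 9.43 and 9.77, so none reached 15. The summits were at −145 bp from the start of RPS18, −48 bp from that of RPS26, +7 bp from that of RPS27 and +567 bp from that of RPS27A. RPS18, RPS27 and RPS27A have another gene's end within 1 kb, among them CLHC1 and MTIF2 beside RPS27A, and RPS26 does not. RPS26 also had HDAC2 (5.28), MTA2 (5.13) and RBBP4 (3.43), RPS18 had HDAC2 (3.93) and RBBP4 (3.06), RPS27A had RBBP4 (3.01) and RPS27 had no subunit.

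H3K4me1 and H3K27me3 were nearly absent. H3K4me1 was at 2 of 82 genes (2.44%, against 7.67% of all), RPL22 (6.30) and RPL35A (4.92), each at the far end and not the start. H3K27me3 was at RPL38 (1.22%, against 2.37%), with a fold enrichment of 6.34 and its summit at −1108 bp. Of the 77 genes with both marks this was 1.30%, against 0.171%. RPL38 also had H3K4me3 (19.2) and H3K27ac (8.65) and no subunit.

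The promoters of the family shared the pyrimidine start. In 65 promoters with an entry, transcription began at C in 47 (72.3%), against 11.3% of 15841 promoters and 12.9% of 6411 with both marks. The first 5 bases were all pyrimidines in 42 (64.6%), against 4.91% and 6.22%. At least 1 of 4 overlapping runs (the run CTTTT, the run CTTTC, the run CTCTT or the run CCTTT) lay on the gene's strand between bases −5 and +12 in 41 (63.1%), against 6.86% and 7.46%. Of the 12 promoters printed above, those of RPL14, RPL3, RPS9, RPL35A, RPS18 and RPS27 begin at C, and those of RPL9, RPS26, RPS27A, RPS27L, RPS29 and RPL10L do not, at the starts placed here. The ETS motif CCGGAAG, on both strands, was in 22 (33.8%), against 14.1% and 22.2%. TCTCGCGAG was in 6 (9.23%), against 1.05% and 2.04%, and the FLI1 repeat unit GGAAGGAA in 2 (3.08%), against 3.64% of all. The SP motif GGGCGG was in 37 (56.9%), against 58.3% and 71.9%, in promoters whose mean G or C content was 58.6%, against 61.3% and 65.0%. It was in 6 of 17 promoters with an HDAC2 peak near the start (35.3%) and in 31 of 48 without (64.6%).

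Other genes of translation had HDAC2 in larger shares than the ribosomal protein genes, without a test between the lists. Over all genes with both marks, HDAC2 was at 73.6%, MTA2 at 42.7%, RBBP4 at 45.4% and CHD4 at 20.4%. Every HDAC2 and CHD4 share of the lists below was under that of all such genes. Those of MTA2 and RBBP4 fell on both sides. Of 77 mitochondrial ribosomal protein genes 59 had both marks, and 35 of the 59 had HDAC2 (59.3%). HDAC2 was at 20 of 29 ribosome assembly genes with both marks (69.0%), 16 of 24 initiation factors (66.7%) and 10 of 14 translation genes whose messages also start with a pyrimidine tract (71.4%), such as EEF1A1 and TPT1. The ribosomal protein genes had 22 of 77 (28.6%). MTA2 was at 10 of those 14 pyrimidine-tract genes (71.4%) and 12 of the 24 initiation factors (50.0%). It was at 11 of the 29 assembly genes (37.9%) and 15 of the 59 mitochondrial ribosomal protein genes (25.4%), where the ribosomal protein genes had 27.3%. RBBP4 was at 29 of the 59 (49.2%), 7 of the 29 assembly genes (24.1%), 9 of the 24 initiation factors (37.5%) and 6 of the 14 pyrimidine-tract genes (42.9%), where the ribosomal protein genes had 26.0%. CHD4 was at 4 of the 59 (6.78%), 2 of the 29 (6.90%), 3 of the 24 (12.5%) and 2 of the 14 (14.3%), where the ribosomal protein genes had 14.3%.

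Of 18 ribosomal protein genes mutated in Diamond-Blackfan anaemia, an inherited red cell failure, HDAC2 was at 9 (50.0%), MTA2 at 9 (50.0%), RBBP4 at 6 (33.3%), CHD4 at 3 (16.7%) and FLI1 at 2, RPS26 and RPS27. No subunit was called at 6 (33.3%). RPL5 had MTA2 alone (4.58) and RPL11 no subunit, while RPS19 and RPL35 each had HDAC2, MTA2 and RBBP4. For the whole family, of which the 18 are part, the subunit shares were 29.3%, 25.6%, 25.6% and 14.6%. FLI1 was at 4.88% of the family and no subunit at 43.9%. Over all protein-coding genes these shares were 39.0%, 20.8%, 22.0%, 10.5%, 0.854% and 54.7%, in the same order. Of 17 with both marks, HDAC2 was at 8 (47.1%, against 73.6% of all such genes) and MTA2 at 9 (52.9%, against 42.7%). RBBP4 was at 6 (35.3%, against 45.4%) and CHD4 at 3 (17.6%, against 20.4%).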

How the data were processed

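Peak lists of 9 ChIP-seq targets in SK-N-MC, 1 sample each, were analysed, grouped by the target in the labels. Per the submitters' processing notes, the tools were BWA 0.7.17, Trimmomatic 0.36, SAMtools 1.9, bedtools 2.27.1, deepTools 3.2.1 and FastQC 0.11.7, and the build GRCh38. MACS2 stands in the deposited peak names. The sources used here do not give its version, the control library, any pooling or excluded regions. Per the deposited columns, each peak has a fold enrichment (a ratio) and a −log10 p from the authors' peak caller. The deposited score and −log10 q were not used. The smallest deposited −log10 p was 9.00 to 9.16 in 7 lists, 7.01 for RBBP4 and 5.02 for FLI1, and depth is unknown.

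Positions were converted to 1-based coordinates. Gene ends came from a RefSeq table of GRCh38.p14, and starts and strands from the promoter entry nearest to an annotated end, for 65 of the 82 genes. Peaks were counted when sharing at least 1 bp with 1 kb on either side of an end, and the highest peak by fold enrichment stood for a gene. Python 3.11.15 with pandas 2.3.3, numpy 2.4.6 and matplotlib 3.10.9 was used. The counting was tested on simulated data with planted peaks.

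The genes, lists and motifs were chosen with earlier results of these data known. Genes were named by rule: all with FLI1, H3K4me1, H3K27me3 or all 4 subunits, all without H3K4me3 or H3K27ac, the first 8 without HDAC2 by alphabet, the 5 highest and 3 lowest in 6 lists (the subunits, H3K27ac and H3K4me3), and RPS19, RPL5, RPL11, RPSA, RPLP0, RPLP1 and RPLP2. Others were named after their values were seen, and some genes the rule names are not reported here by name. Alternatives changed the window, the peak threshold, the summit rule, the gene set and the measure of height. No test was made, since each target has 1 list.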

Additional observations from a re-analysis of the deposited data

How the results depend on the processing

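Of 113 values set beside a reported value, 78 lay within 1.5 times it and 35 did not. Some of the 78 are no recount of a result. They include the GTGCGT counts, set beside those of another motif, ATGGCGG (5 against 7, and 5 against 5). The FLI1 count among the 2000 highest peaks could not change, since that list holds 1561 peaks. With a window of 250 bp, CHD4 was at 5 genes and H3K4me1, H3K27me3 and all 4 subunits at 0 each. With 2 kb, H3K4me1 was at 5 and all 4 subunits at 3. With a −log10 p of at least 15, CHD4 was at 7, RBBP4 at 9 and FLI1 at 0. With only the 2000 highest peaks of each list, H3K4me3 was at 38 genes, H3K27ac at 29, MTA2 at 7, and CHD4, HDAC2, RBBP4, H3K4me1 and all 4 subunits at 0, with no subunit at 75. With the summit required in the window, H3K27me3 and all 4 subunits were at 0. Near the placed start of 65 genes, CHD4 was at 7, RBBP4 at 13, and H3K4me1 and all 4 subunits at 0. Without the 31 genes beside another gene end, HDAC2 was at 10 of 51, RBBP4 at 10, FLI1 at 1, H3K27ac at 47 and H3K4me3 at 48; fewer genes are counted there. By −log10 p, the median percentile was 44.8 for HDAC2, 40.7 for RBBP4 and 37.7 for CHD4 (55.6, 43.7 and 45.5 for all genes), and near the placed start by fold enrichment it was 31.8, 12.9 and 29.1. Where not set by the construction, the cause was not tested. The HDAC2 share among ribosomal protein genes with both marks stayed below that of all such genes in each setting: 22.4% against 65.2% with 250 bp, 32.5% against 75.3% with 2 kb, 26.0% against 65.3% with a −log10 p of at least 15, 25.7% against 71.3% by summit, and 0 of 15 against 2.10% of 525 among the 2000 highest peaks, too few to rank. No paired analysis was possible because each target has 1 sample and no test was made.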
